A study of Mus musculus with 2 samples.

Results

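Long footprints seen in both ovaries are stretches of at least 30 bp called as having fewer DNase I cuts than their surroundings in each of 2 mouse ovary libraries. The loci were chosen by footprint width and position in both libraries: one counted when an interval of 30 bp or wider in 1 library overlapped such an interval of the other by at least 15 bp. There were 9411 such loci, each with 1 interval per library, among 301406 footprints in replicate 1 and 294269 in replicate 2. That is 3.12% of the footprints of replicate 1 and 3.20% of those of replicate 2, shares that the rule itself fixes. DNase-seq was done on ovary tissue of female B6CASTF1/J mice, the F1 generation of a cross between C57BL/6J and CAST mice, at 36 days of age. The design has 1 group of 2 biological replicates, with no treatment and no control tissue, and each library was taken as 1 animal, since the labels number the females differently while giving both the same donor entry. Everything below is therefore a description of these 2 libraries, without a test between groups.

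DNase I cuts accessible DNA, and a protein that sits on the DNA shields its site, so a footprint is a run of bases with fewer cuts than its open surroundings. Most sequence-specific factors contact a short element, and a long footprint can cover a large protein surface or several proteins side by side. CTCF, an architectural protein with an array of zinc fingers, and REST, the zinc finger repressor of neuronal genes, both contact unusually long elements, while NFY and SP/KLF factors bind the short CCAAT and GC boxes that cluster upstream of many promoters.

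The sequences of the widest loci follow, and their letters alone do not show how many proteins sit on them. The first set holds the 5 widest loci within 1000 bp of an annotated transcript start, named by the gene with the nearest start, and the second 4 of the widest loci farther away. They are the union of both intervals on the plus strand of GRCm38.p6, taken from the RefSeq assembly, and capitals mark matches to any of 24 binding patterns given further on.
Zmynd8, chr2:165884719-165884790: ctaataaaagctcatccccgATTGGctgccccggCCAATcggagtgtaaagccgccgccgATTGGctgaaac
Leprot, chr4:101647207-101647273: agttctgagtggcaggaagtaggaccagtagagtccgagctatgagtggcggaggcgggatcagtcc
Parp2, chr14:50807786-50807858: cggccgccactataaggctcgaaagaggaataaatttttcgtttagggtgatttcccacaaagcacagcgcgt
Cnnm3, chr1:36511784-36511846: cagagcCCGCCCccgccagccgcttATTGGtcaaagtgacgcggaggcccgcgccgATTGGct
Gm24270, chr9:56223580-56223652: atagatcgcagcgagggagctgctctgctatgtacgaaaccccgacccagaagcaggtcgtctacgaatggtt
Gm19951, chr12:99645577-99645654: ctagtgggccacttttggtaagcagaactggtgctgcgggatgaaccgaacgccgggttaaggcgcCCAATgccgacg
D130009I18Rik, chr14:104715795-104715878: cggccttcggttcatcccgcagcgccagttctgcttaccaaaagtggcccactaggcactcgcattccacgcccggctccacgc
Gm21182, chr8:20550230-20550303: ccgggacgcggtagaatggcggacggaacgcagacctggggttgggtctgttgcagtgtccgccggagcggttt
Slc9a3r1, chr11:115160149-115160215: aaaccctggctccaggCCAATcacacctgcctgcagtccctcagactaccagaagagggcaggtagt

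Of the 5 widest promoter loci, 4 lay upstream of the start of a protein-coding gene. At Zmynd8, which encodes a reader of acetylated histones, the footprint was 72 bp wide in replicate 1 and 69 bp in replicate 2, centred 4 bp upstream of the start, and held 3 CCAAT boxes. The peak that held it had a value of 12.1 in replicate 1 and 8.74 in replicate 2. At Cnnm3, of a family of magnesium transporters, a footprint of 63 and 60 bp lay 52 bp upstream of the start and held 1 GC box and 2 CCAAT boxes, in a peak of 23.8 and 10.5. Near Leprot, which overlaps the leptin receptor locus, the widths were 66 and 67 bp and the values 19.4 and 13.2, with no match to any of the 24 patterns. The Parp2 locus, 19 bp upstream of a start, is shared with Rpph1, the RNA component of RNase P, and was 72 bp wide in replicate 1 and 56 bp in replicate 2. Among the distal ones, a footprint of 67 and 66 bp lay 3159 bp upstream of Slc9a3r1, a scaffold protein of membrane transporters, in a peak of 3.76 and 2.91, and held a CCAAT box. One of 65 and 66 bp lay in an intron near Gm7775, in a peak of 6.68 and 5.88.

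Some of the widest distal loci consist of sequence that occurs more than once. The middle 30 bases of the locus near D130009I18Rik occurred 12 times in the reference and those near Gm21182 4 times. The loci near Gm19951 and D130009I18Rik, on different chromosomes, share a run of 31 bases on opposite strands. Yet the middle 30 bases near Gm19951 occurred once, so a single copy of the middle bases does not make the whole locus unique. Single-copy below refers to those middle bases in the reference alone, also for Gm24270. Over all loci, the middle 30 bases occurred once for 9164, or 97.4%, 2 to 5 times for 153 and more than 5 times for 93. The 246 loci with 2 or more copies had a median width, averaged over both libraries, of 38 bp, against 35.5 bp for the single-copy ones. They had a CTCF match in 2.44%, against 17.8% of the single-copy ones. Their part in the widths of the widest loci was not tested.

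The second set of sequences shows loci with a CTCF match, the pattern with the highest ratio between long and other footprints. Footprints just under the width limit had it about as often, as given further on. The first 4 below are the widest single-copy loci with a match, on the plus strand, with matches to any of the 24 patterns in capitals.
Gm22396, chr1:82839351-82839403: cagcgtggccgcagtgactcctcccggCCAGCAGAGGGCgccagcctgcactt
Dram1, chr10:88376926-88376976: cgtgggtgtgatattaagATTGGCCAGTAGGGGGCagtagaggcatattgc
Rplp0, chr5:115559270-115559329: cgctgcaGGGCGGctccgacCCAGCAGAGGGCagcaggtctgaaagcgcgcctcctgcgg
Pmp22, chr11:63135784-63135833: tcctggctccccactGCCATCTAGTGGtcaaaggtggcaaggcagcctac
The next 6 have edges that fall on the same bases in both libraries and are shown on the strand of the match, with the CTCF match alone in capitals. The first 3 of them have few bases before the match and the last 3 have many. They were chosen after their values were seen.
D430018E03Rik, chr5:142877461-142877505, minus strand: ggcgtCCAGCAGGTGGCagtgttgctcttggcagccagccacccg
Galnt7, chr8:57531176-57531213, minus strand: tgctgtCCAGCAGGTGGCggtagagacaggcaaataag
Ppp1r26, chr2:28420080-28420116, minus strand: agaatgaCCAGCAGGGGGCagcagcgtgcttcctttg
Gm12245, chr11:57934447-57934495, minus strand: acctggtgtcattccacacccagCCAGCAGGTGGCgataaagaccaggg
Coro2a, chr4:46611388-46611435, plus strand: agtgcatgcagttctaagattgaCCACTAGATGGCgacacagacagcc
Vps13d, chr4:145214558-145214605, plus strand: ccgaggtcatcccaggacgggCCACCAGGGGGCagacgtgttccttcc
The last pair are the widest loci with the left element of the REST site, which is in capitals, on the plus strand.
Gm49460, chr15:72568704-72568758: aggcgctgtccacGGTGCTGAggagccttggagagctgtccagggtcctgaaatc
Lin28a, chr4:134020796-134020849: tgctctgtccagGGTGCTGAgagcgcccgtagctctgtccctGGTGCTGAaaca

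The rule asks for width in both libraries, so these widths are a description of the loci it chose. The median was 35 bp in each library, with quartiles of 32 and 42 bp in replicate 1 and of 32 and 41 bp in replicate 2. The widest reached 84 bp in replicate 1 and 77 bp in replicate 2. Of the 9411 loci, 4463 (47.4%) were wider in replicate 1, 3200 (34%) were wider in replicate 2 and 1748 (18.6%) had equal widths. The bases inside both intervals made up a median of 93.8% of their union. Either edge differed by a median of 1.00 bp, both edges fell on the same base at 1103 loci (11.7%), and both lay within 2 bp at 5710 (60.7%). At 651 loci (6.92%) some edge differed by more than 10 bp.

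The widths did not fall off smoothly. In replicate 1, 4285 loci were 30 to 34 bp wide, 1846 were 35 to 39 bp, 1724 were 40 to 44 bp and 1285 were 45 to 49 bp, while 271 were 50 bp or wider. Replicate 2 had 4561, 1825, 1671, 1122 and 232 loci in the same classes. Both libraries thus had a shoulder up to about 45 bp and few loci past 50 bp. The sources used here do not say if the footprint caller limits the width.

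**Figure D1:**
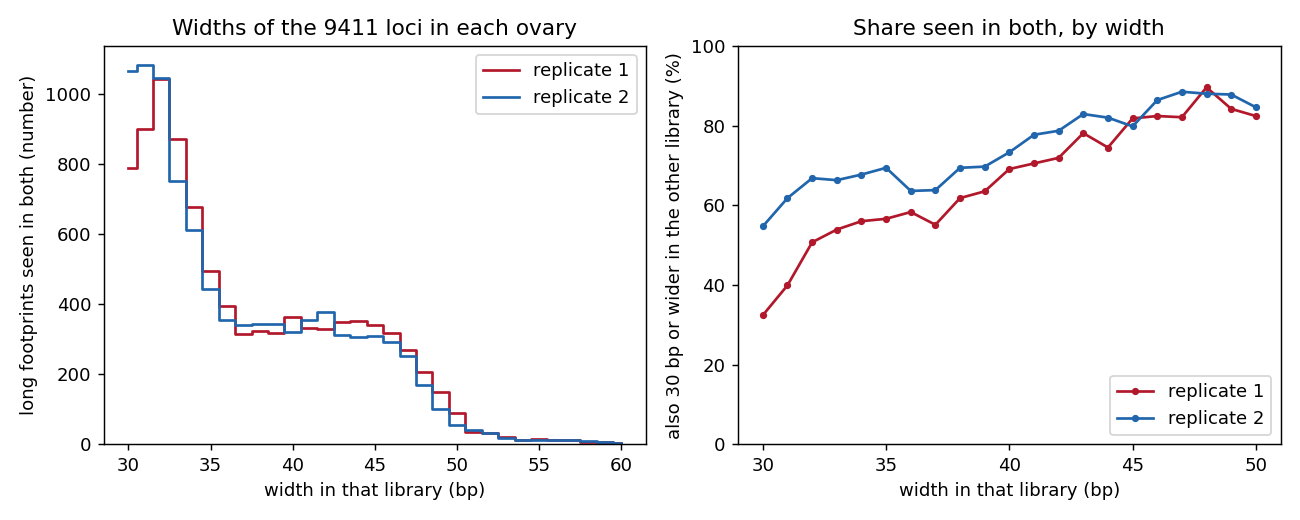
Left, number of long footprints seen in both ovaries at each width in bp, in replicate 1 (red) and replicate 2 (blue), shown up to 60 bp. Right, share of all footprints of that width in 1 library that were also 30 bp or wider in the other. Both libraries show a high at 30 to 33 bp and a shoulder that ends near 50 bp, and the share seen in both was 32.4% at 30 bp and 82.4% at 50 bp in replicate 1.

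Wider footprints more often met a long one in the other animal. A footprint near the width limit can drop out with a small shift of an edge. The part of the limit in this rise was not tested. Of all footprints of 30 to 34 bp, 44.7% of those in replicate 1 and 62.4% of those in replicate 2 were also long in the other animal. Of footprints of 45 to 49 bp, 83.4% of those in replicate 1 and 85.3% of those in replicate 2 were. Of the 16960 long footprints of replicate 1, 4509 (26.6%) met 1 shorter footprint in replicate 2, 2731 (16.1%) met several shorter ones and 304 (1.79%) met none. Of the 13736 of replicate 2, 2322 (16.9%) met 1 shorter footprint, 1560 (11.4%) several and 440 (3.20%) none. A long footprint in 1 animal alone thus mostly overlapped shorter footprints of the other, counted from 1 base of overlap. How often such overlap would arise from the density of footprints was not tested. Just inside the width limit, the 2942 loci whose narrower interval was 30 or 31 bp had median peak values of 3.20 and 2.22, a promoter share of 34.5% and a CTCF match in 22.9%. Just outside it, at 28 or 29 bp, the 3547 loci had values of 3.02 and 2.09, a promoter share of 38.4% and a CTCF match in 19.2%, which is above the 17.4% of all long footprints.

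The 24 patterns were matched on both strands in 60 bp windows centred on each locus, beside equal windows on the 126667 other footprints. Those are footprints seen in both libraries, by at least 1 base, that touch no long one. The patterns were CTCF (by its name), NRF1 (CGCANGCGC), the SP/KLF GC box (GGGCGG), the NFY box (CCAAT), ETS (CCGGAAG), YY1 (AANATGGCG), CREB/ATF (TGACGTCA), AP-1 (TGANTCA), the USF E-box (CACGTG), the bHLH E-box (CAGCTG), ZNF143 (ACTACAATT) and RFX (GTTNCCATG). The others were the REST left element (TCAGCACC), NFI (TTGGCA), NR5A (CAAGGTCA), the nuclear receptor element (AGGTCA), forkhead (TGTTTAC), the element of GATA proteins (AGATAA), the box of the TBP protein (TATAAA), TEAD (GGAATGT), RUNX (TGTGGTT), ZBTB33 (CTCGCGAG), E2F (TTCCCGC) and EGR (GCGTGGGCG). The NR5A pattern contains the nuclear receptor element, so each of its matches counts for both. Matches had to be exact, so sites close to a pattern, of CTCF among others, were not counted. A match is a description of the letters and not proof of binding, and 4305 long footprints (45.7%) held none of the 24, against 52.9% of the others.

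CTCF matches were more frequent in long footprints than in all others together, though not than in those of 28 or 29 bp. A match stood in 1637 of 9411 loci, or 17.4% (95% Wilson interval from 16.6% to 18.2%, counting error only), against 2.97% of other footprints and 5.10% of the peaks seen in both libraries. Away from promoters the share was 26.2% in long footprints and 5.67% in the others. Within 1000 bp of a start it was 5.15% and 0.754%. The match was whole inside the footprint in 1636 of the 1637 loci. Patterns of 2 further factors stood out by ratio, though their shares in footprints of 28 or 29 bp were not counted. The REST left element was in 160 long footprints, 1.70%, against 0.588% of others. The CREB/ATF palindrome, a site of cyclic AMP-responsive transcription, was in 110, 1.17%, against 0.501%, and 97 of those 110 lay within 1000 bp of a start.

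**Figure D2:**
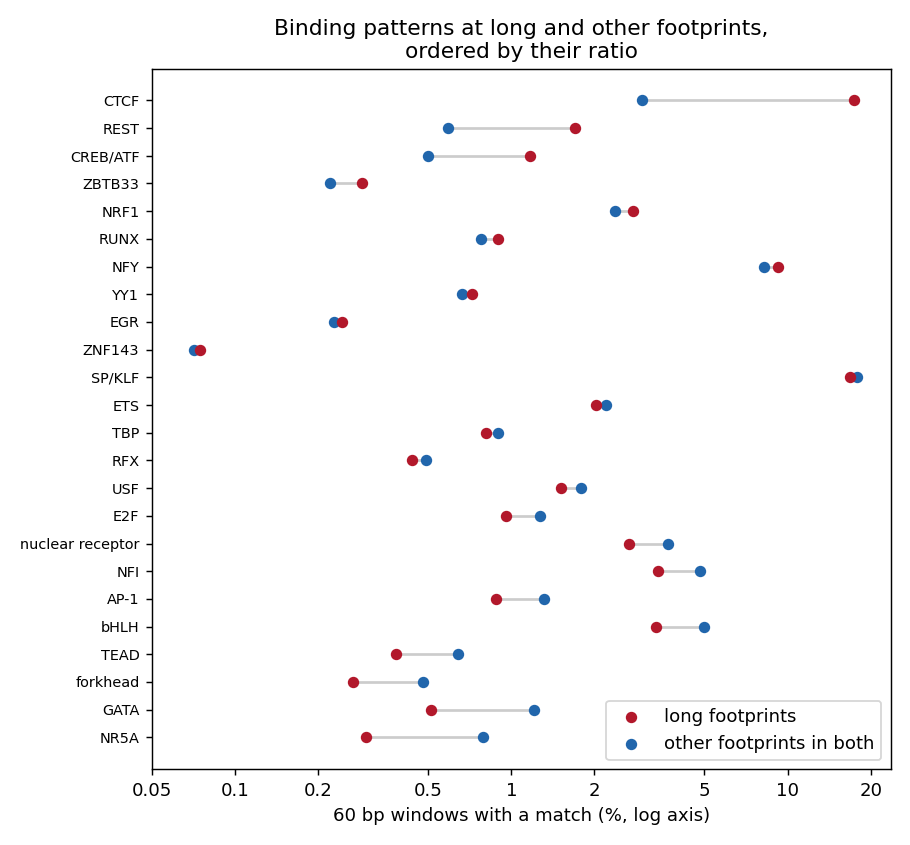
Share of 60 bp windows with a match, in percent on a log axis, for 24 binding patterns named by their factors, in long footprints (red) and in other footprints seen in both libraries (blue). The rows are ordered by the ratio of the 2 shares, from CTCF at 17.4% against 2.97% down to NR5A at 0.298% against 0.790%.

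The lowest ratios were those of NR5A, GATA and forkhead, picked here for their place in that order. The element of NR5A receptors, which drive steroid synthesis genes in gonads, was in 28 long footprints, 0.298%, against 0.790% of others. GATA, the element of GATA4 and GATA6 in granulosa and theca cells, was in 0.510% of long footprints and 1.21% of others. The forkhead element, bound by FOXL2 and FOXO proteins among others, was in 0.266% and 0.478%. Away from promoters the shares were 0.384% against 1.41% for NR5A, 0.695% against 1.89% for GATA and 0.201% against 0.609% for forkhead. Near starts they were 0.178% against 0.276%, 0.254% against 0.648% and 0.355% against 0.370%, in the same order. Of the matches, 23 of 28 for NR5A (82.1%), 20 of 48 for GATA (41.7%) and 7 of 25 for forkhead (28%) lay whole inside the long footprint, and 100%, 75% and 56% touched it. The elements of TEAD, the bHLH E-box and AP-1 were also less frequent in long footprints than in others, with ratios of 0.595, 0.670 and 0.673.

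Around the CTCF match the footprints had 2 shapes. On the strand of the match, the 5′ edge lay 5 or 6 bases before the first matched base in 749 of 1636 loci in replicate 1 and 719 in replicate 2. A second group of edges, 20 to 24 bases before it, held 380 loci in replicate 1 and 368 in replicate 2. Few edges fell between, with 1 locus at 13 bases in replicate 1 and 5 in replicate 2. The loci were divided at a mean of 13 bases over both libraries, a value chosen after the edges were seen. The 510 loci (31.2%) with the far edge had a median of 22 bases before the match in replicate 1 and 21 in replicate 2, and widths of 44 and 43 bp. The 1126 loci (68.8%) with the near edge had 6.00 bases before the match in both and widths of 32 bp in both. In 419 of the 510 and 1046 of the 1126 both libraries fell on the same side of the division. The 3′ edge had a single high, with medians of 11 and 10 bases after the match in the far class and 14 in both libraries in the near class. The width rule leaves out footprints with short margins on both sides, so this does not describe all CTCF sites.

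**Figure D3:**
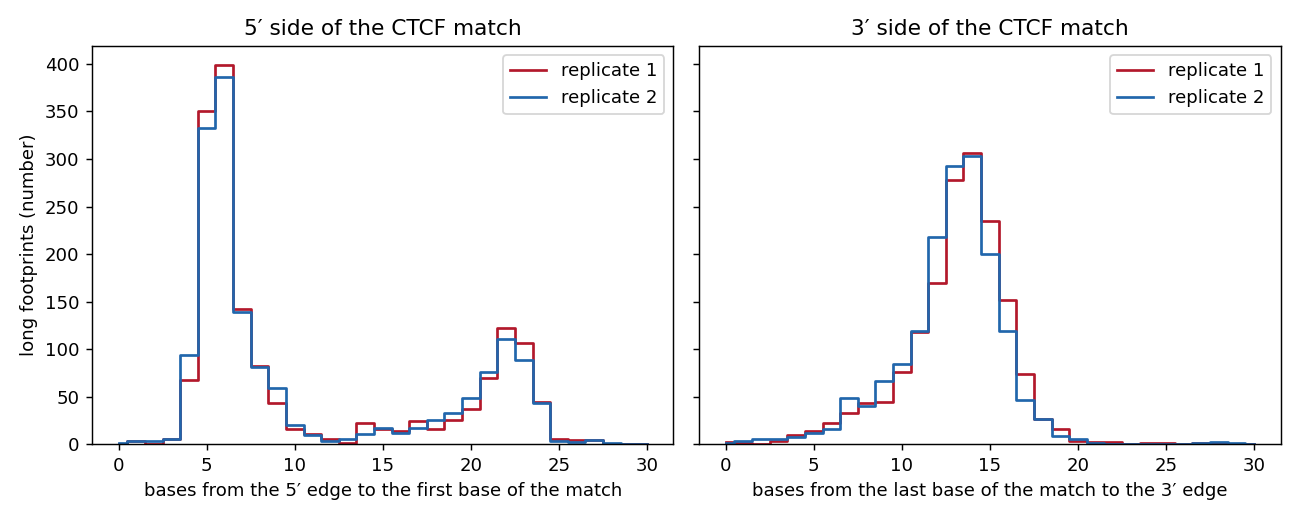
Number of long footprints by the bases between their 5′ edge and the first base of a CTCF match (left) and between its last base and their 3′ edge (right), on the strand of the match, in replicate 1 (red) and replicate 2 (blue), for 1636 loci. The 5′ side has 2 groups of edges in both libraries, near 6 and near 22 bases, and the 3′ side has 1, near 14.

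The far class carried a further stretch of sequence that played no part in dividing the loci. Starting 17 bases before the match, its commonest letters read TGCANTNCC, where N stands for any base. CTCF is known to contact such an upstream element with its C-terminal zinc fingers at a part of its sites. The G of that stretch was present in 74.3% of the far class against 34.5% of the near class, its second T in 73.7% against 35.8%, and its first C in 63.1% against 30.3%. At least 6 of the 7 letters were present in 152 of 510 loci of the far class (29.8%) and in 12 of 1126 of the near class (1.07%). The letters were read from the far class itself, so its own share is a description. Among 8-letter words that were at least 1% of distal loci, TGCAGTAC and TGCAGTTC, which hold the start of that stretch, were in 1.74% and 2.70% of long footprints outside repeats, against 0.288% and 0.539% of others. The peaks were alike in value, with medians of 2.80 and 2.30 in the far class and 2.81 and 2.04 in the near class.

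Single loci show both shapes. The far-class footprint near Coro2a was 48 bp wide in both libraries with 23 bases before the match and 13 after it, and its peak had a value of 2.02 in replicate 1 and 2.52 in replicate 2. The near-class footprint 7.26 kb downstream of the Galnt7 start was 38 bp wide with 6 bases before the match and 20 after it, in a peak of 2.72 and 2.58. At promoters, the CTCF match 167 bp upstream of Rplp0, a ribosomal stalk protein gene, lay in a footprint of 41 bp in replicate 1 and 60 bp in replicate 2. The value of its peak was 21.3 in replicate 1 and 12.1 in replicate 2, or 16.7 ± 6.49 (SD, n = 2).

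A peak over a CTCF match was more often one with a long footprint. Of 4019 peaks in both libraries with a match at their centre, 1470 (36.6%) held a long footprint, against 7233 of 74772 (9.67%) without a match. Peaks were also ranked by mean value into 10 bins of equal size. In the top bin, 101 of 127 peaks with a match (79.5%) held one, against 34.3% of those without. In bin 5 the shares were 9.85% and 2.67%, and in the lowest bin no peak of either kind held one.

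The REST loci also came in 2 spacings. The right element GGACAG followed the left one within 15 bases in 109 of 160 long footprints with the left element (68.1%), against 218 of 745 such others (29.3%). It followed after 2 bases in 62 loci, the arrangement of the textbook element, and after 7 to 11 bases in 47. The wider spacing made up 47 of the 109 loci with both elements (43.1%), against 39 of 218 other footprints with both (17.9%). The width limit favours the wider spacing, and its part in this was not tested. Footprints with 2 bases between the elements had median widths of 32 bp in replicate 1 and 31 bp in replicate 2, and those with 7 to 11 had 36 and 35 bp. Their quartiles in replicate 1 were 31 and 33 bp for the close spacing and 33 and 38.5 bp for the wide one. From the 5′ edge to the left element there were 6.00 bases in the median of each library.

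The widest REST loci lay near genes of varied roles. Near Lin28a, a regulator of let-7 miRNAs, a footprint of 54 and 51 bp lay 1982 bp upstream of the start, held the left element in 2 places and sat in a peak of 4.31 in replicate 1 and 3.19 in replicate 2. The one 22.4 kb from Kcnk9, a potassium channel gene, was 55 and 52 bp wide in a peak of 2.59 and 2.40. At Cited2, a transcriptional co-regulator, it lay 83 bp upstream of the start, in a peak of 18.4 and 9.97. Among the 5 loci in the weakest peaks, the REST left element was in 2. The weakest of all, in an intron near Gm23854, had peak values of 0.469 and 0.524. The other, near Gm35772, had 0.534 and 0.556. The remaining 3, near Gm45553, Gm17822 and Gm43523, had values from 0.475 to 0.593 in replicate 1 and from 0.471 to 0.556 in replicate 2.

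Long footprints lay just upstream of transcript starts or far from them. Of the 9411, 3943 (41.9%) had their midpoint within 1000 bp of a GENCODE start, against 54.9% of other footprints and 34.9% of peaks in both libraries. A further 2326 (24.7%) were intronic, 2771 (29.4%) intergenic and 371 (3.94%) exonic, against 21%, 20.4% and 3.71% of other footprints. The median distance to a start was 2264 bp, against 512 bp for other footprints. Of those within 1000 bp, 3030 (76.8%) were upstream, against 59.9% of others, with a median position of -46 bp against -20 bp. Within 100 bp downstream of a start lay 453 long footprints, 4.81%, against 12.3% of others, whereas 19.9% and 17.8% lay within 100 bp upstream. Among the long footprints within 1000 bp, 87.4% had the start of a protein-coding gene nearest and 4.21% that of a lincRNA, against 89% and 3.34% of others.

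**Figure D4:**
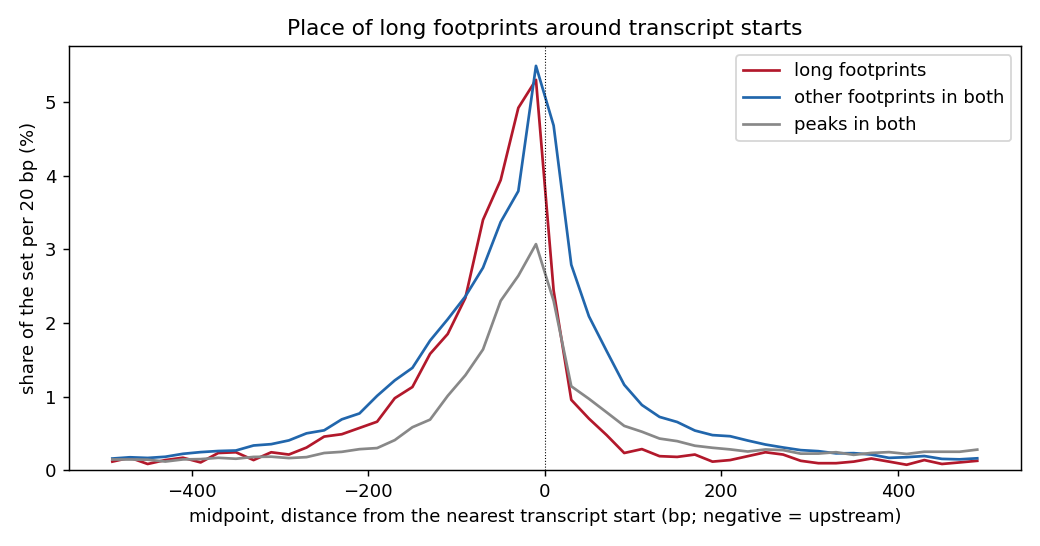
Share of each set per 20 bp of distance between its midpoint and the nearest transcript start, negative upstream, for long footprints (red), other footprints in both libraries (blue) and peaks in both (grey). Long footprints stand at 4.92% from 40 to 20 bp upstream, against 3.79% of other footprints, and at 0.956% from 20 to 40 bp downstream, against 2.79%.

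Promoter and distal long footprints differed in what they held. Near starts, the GC box was in 34.4% of long footprints against 27.6% of others, the CCAAT box in 13.6% against 9.34%, NRF1 in 5.76% against 3.89%, and CREB/ATF in 2.46% against 0.750%. Away from starts, the GC box was in 4.35% against 6.13% and the CCAAT box in 6.05% against 6.88%. Several GC boxes in 1 window were slightly more frequent in long footprints, with 3 or more in 1.21% against 0.804%. Base composition of equal windows was close, with 60.5% GC in long footprints and 61.1% in others, 65.9% and 65.8% near starts, and 56.6% and 55.5% elsewhere. CpG pairs per 100 bases in those windows came to 8.85 against 8.48 near starts and to 3.09 against 2.60 elsewhere. Of the footprints' own bases, the median GC was 61.8% in long footprints and 66.7% in others.

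The share of CTCF matches and of loci near starts varied with width, in no steady order. The 4297 loci of a mean width under 35 bp had a CTCF match in 23.9% and lay near starts in 34.7%. From 35 to under 40 bp, 10.3% had a CTCF match and 53.6% were near starts, and from 40 to under 45 bp 13.1% and 46.2%. Among the 1000 loci from 45 to under 50 bp, 15.1% had a CTCF match and 34.8% were near starts. The 160 of at least 50 bp had an exact CTCF match in 1.88% and were near starts in 71.2%, with a CCAAT box in 19.4% and a GC box in 31.2%. Sites close to the CTCF pattern were not counted, so these loci need not lack CTCF sites. The median peak values of this widest class were 12.7 and 7.50, against 3.51 and 2.37 for the narrowest class.

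The peaks that held long footprints were of high value. A peak's value is the signal the authors deposited with it, on a scale that was not given in the sources used. The median was 4.04 in replicate 1 and 2.79 in replicate 2 for long footprints, 3.42 ± 0.889 over the libraries (SD, n = 2), against 2.72 and 1.91 for other footprints and 1.09 and 0.883 for all peaks in both. Near starts it was 10.3 and 5.45 for long footprints against 6.25 and 3.51 for others, and elsewhere 2.64 and 2.03 against 1.36 and 1.11. Replicate 2 had the lower value at 87.9% of the loci, with a median log2 difference of -0.61 from replicate 1, and -0.63 at other footprints. No peak held the locus in either library at 78 loci. The medians leave out footprints without a peak, which were more frequent among other footprints. In replicate 1 they were 199 of 9411 long and 16441 of 126667 other footprints, and in replicate 2 192 and 14077. Near starts in replicate 1 they were 161 of 3943 long and 13176 of 69478 others.

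**Figure D5:**
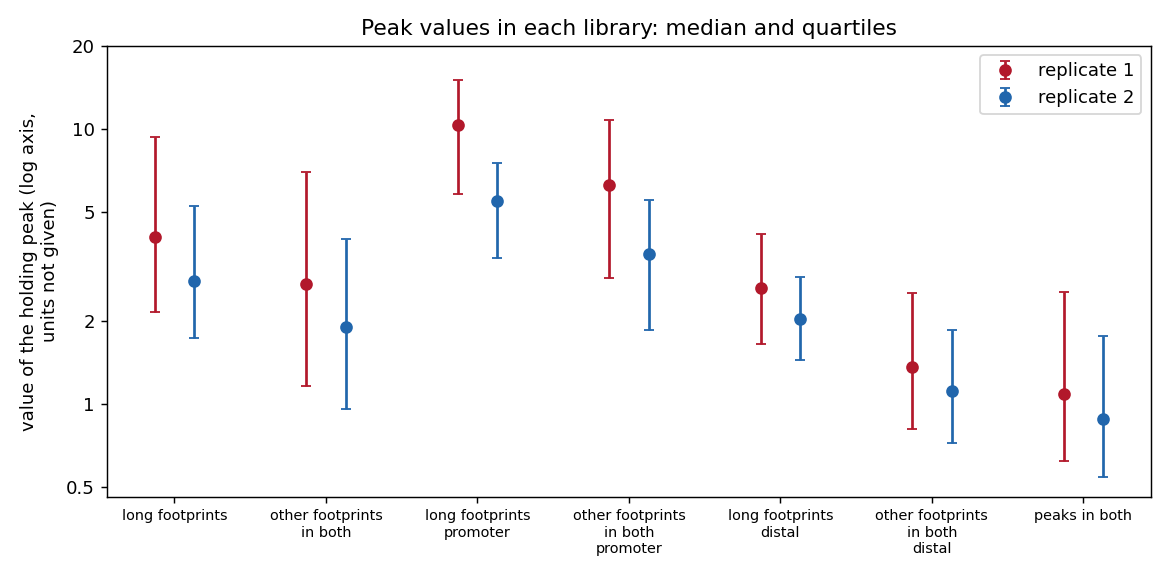
Value of the peak that holds each footprint, on a log axis in the deposited unit, in replicate 1 (red) and replicate 2 (blue), with points for medians and bars for quartiles across regions. In each library long footprints lie above other footprints, near starts at 10.3 and 5.45 against 6.25 and 3.51, with ranges that overlap.

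The share of peaks with a long footprint went up with the peak's value. It was 0.0381% in bin 2 of 10, 2.97% in bin 5, 13.2% in bin 7 and 35.1% in bin 10, where 99.3% held some other footprint. The number of cuts per site is not known from these files, and its part in this was not tested. In all, 8703 of 78791 peaks (11%) held a long footprint, and 8140 of these held 1, 510 held 2, 51 held 3 and 2 held 4. Peaks with a long footprint had a median width of 200 bp and a median value, averaged over both libraries, of 3.20. Those with other footprints alone had 240 bp and 1.19. The long footprint lay a median of 11 bp from the centre of its peak in replicate 1, against 45 bp for others.

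By the mean of both libraries, the 5 loci in the strongest peaks were distal. In replicate 1 alone the highest value was at a promoter, 50.6, against 38.4 at the highest distal locus. An intron of Il31ra, a cytokine receptor gene, held 2 long footprints of 52 and 53 bp and of 52 and 67 bp in 1 peak of 38.4 in replicate 1 and 41.8 in replicate 2. Upstream of Igf2bp3, an RNA-binding protein gene, 1 peak of 37.7 and 42.1 held 3, and the first of them held an AP-1 match. One of the Il31ra loci and one of the Igf2bp3 loci had middle bases with more than 1 copy, at 3 and 2 copies. Each shares its peak with the other loci named there, so both peaks hold repeated sequence. Copies were counted for the middle 30 bases in the reference alone. The part of repeated sequence in these peak values was not tested. All 5 were higher in replicate 2, against the direction of most loci.

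Of 21911 protein-coding genes, 3381 (15.4%) had a long footprint within 1000 bp of a start, which is 22.8% of the 14844 with a peak of both libraries there. Most of them, 2801, had 1, while 501 had 2 and 79 had more. The 4 with 5 were Alg5 and Exosc8, which share a promoter region, Rab11b and Rbpj. At Rbpj, the DNA-binding partner of Notch, they lay between 794 bp upstream and 208 bp downstream of the nearest start. At Exosc8, an exosome subunit, 4 of the 5 lay in 1 peak of 10.1 in replicate 1 and 6.26 in replicate 2.

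Gene lists were drawn up with earlier results of these data known, and their counts stand beside 15.4% of all protein-coding genes and 22.8% of those with a peak. As a check of the tissue, peaks of both libraries stood at 20 of 20 granulosa promoters, beside 67.7% of all protein-coding genes, against 2 of 12 for macrophage genes, 8 of 12 for endothelium, 15 of 17 for stroma and smooth muscle, and 8 of 21 for the oocyte. Immediate early, cholesterol synthesis and mitochondrial ribosomal genes had peaks at all of theirs too, so full counts do not mark a tissue. Long footprints stood at 3 of 20 granulosa genes (Amh, Cyp19a1 and Esr2), 3 of 24 gonadal regulators (Cbx2, Esr2 and Six4), 3 of 16 genes of theca and steroid synthesis (Fdx1, Gli1 and Scarb1), 5 of 20 luteal genes (Cebpa, Parm1, Ptgfr, Rgs2 and Vegfa) and 2 of 21 oocyte genes (Dazl and Gdf9). At 17 genes of stroma and smooth muscle, 12 of endothelium and 12 of macrophages there was none. Cholesterol synthesis had 3 of 19 (Dhcr7, Hmgcs1 and Srebf1).

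At the 3 granulosa genes the long footprints lay 597 to 824 bp from the nearest start. At Cyp19a1, the aromatase that makes estrogen, the footprint was 34 bp wide in both libraries, 597 bp downstream of the start, in a weak peak of 1.04 in replicate 1 and 1.15 in replicate 2. At Amh, the anti-Müllerian hormone of growing follicles, it was 42 bp in both, 824 bp downstream, in a peak of 3.78 and 2.61. At Esr2, the estrogen receptor of granulosa cells, it was 34 bp in replicate 1 and 32 bp in replicate 2, 759 bp upstream, in a peak of 3.18 and 1.87. In the theca list, at Gli1, a target and effector of hedgehog signalling in theca cells, it lay 940 bp downstream, in a peak of 2.44 and 3.50. The loci at Cyp19a1, Amh and Gli1 held no exact match to the 24 patterns, and sites close to a pattern were not counted.

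Other loci of the ovarian lists lay within 120 bp of a start. At Scarb1, the receptor that takes up cholesterol from high-density lipoprotein, the footprint of 40 and 41 bp was 66 bp upstream, with a GC box and an EGR element, in a peak of 9.87 and 4.21. At Vegfa, the vascular growth factor, it was 72 bp upstream and held 2 GC boxes, in a peak of 7.25 and 4.89. At Cebpa, a transcription factor of the response to luteinising hormone, it was 38 bp upstream and held a TATA box, in a peak of 16.7 and 9.04. At Gdf9, an oocyte growth factor, the locus was 117 bp from its start and near that of Uqcrq, of the respiratory chain, with values of 14.7 and 8.57. At Dazl, a germ cell RNA-binding protein, it was 38 bp upstream with 9.92 and 4.07. Six4, a homeobox gene, had a CCAAT box in a peak of 2.74 and 1.43, and Cbx2, a Polycomb gene, had NRF1 and GC boxes in a peak of 8.43 and 3.08.

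Several housekeeping lists and immediate early genes had long footprints at a larger share of their genes than the ovarian lists. They stood at 32 of 75 mitochondrial ribosomal protein genes (42.7%), 15 of 48 proteasome genes (31.2%), 30 of 97 respiratory chain genes (30.9%), 23 of 81 cytosolic ribosomal protein genes (28.4%), 32 of 115 genes of splicing and RNA binding (27.8%) and 18 of 68 of translation factors (26.5%). Immediate early genes had 6 of 15, or 40% (Egr1, Ier2, Jun, Junb, Jund and Klf6). Histone genes had 14 of 101 (13.9%), 9 of them H4 genes, and zinc finger genes 66 of 458 (14.4%). Counted over members with a peak, the shares were 42.7% for mitochondrial ribosomal proteins, 33.3% for the respiratory chain, 31.9% for the proteasome, 29.5%, 29.1% and 28.1% for ribosomal, splicing and translation genes, 26.3% for luteal, 25% for oocyte, 21.4% for theca, 15% for granulosa genes and 12.5% for gonadal regulators. By the same count immediate early genes had 40%, histone genes 20%, zinc finger genes 16.4% and cholesterol synthesis 15.8%. Stroma and smooth muscle, endothelium and macrophage genes had none. No list was tested against the 22.8%.

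The widest of these loci were near starts and in strong peaks. At Atp5b, the catalytic subunit of ATP synthase, the footprint was 58 bp in both libraries, 28 bp upstream, with a GC box and a CCAAT box, in a peak of 11.1 in replicate 1 and 7.78 in replicate 2. At Psmb3, a proteasome subunit, it was 51 and 68 bp, 65 bp upstream, with a CCAAT box, in a peak of 8.94 and 9.59. At Psmg3, a proteasome assembly chaperone, it was 53 and 51 bp in a peak of 7.29 and 5.71. At Rpl26, a ribosomal protein, it was 50 bp in both, 116 bp upstream, in a peak of 13.6 and 7.44. At Hist1h4c, a histone H4 gene, it was 47 and 46 bp, 46 bp upstream, in a peak of 11.8 and 10.6. Hist2h2aa2, a histone H2A gene, had a TATA box in its footprint of 49 and 43 bp.

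Further loci were the widest of their lists. At Vmac and Ndufa11, a subunit of complex I, a footprint of 50 bp in both held a CREB/ATF palindrome and a GC box, in a peak of 10.9 and 7.11. Eif3f and Eif3e, of translation initiation factor 3, had footprints of 57 and 42 bp and of 44 and 49 bp. Mrpl48 and Mrps31, of the mitochondrial ribosome, had 50 and 48 bp and 50 and 45 bp, and Mrps31 lay in a weaker peak of 2.57 and 3.29. Hnrnpdl, an RNA-binding protein, had 48 and 49 bp at 17.2 and 6.63, and Rbm27, another one, 59 and 58 bp at 21.5 and 12.5. The zinc finger genes Zfp609 and Zfp809 had 56 and 57 bp and 52 and 53 bp. At Egr1, an immediate early transcription factor, the footprint was 51 bp in replicate 1 and 31 bp in replicate 2, in a peak of 16.3 and 7.13, and at Junb it was 45 bp in both, 934 bp downstream, at 1.80 and 1.41. Srebf1, the regulator of lipid synthesis genes, had 38 and 48 bp at 9.59 and 4.84, and Hmgcs1, of cholesterol synthesis, had 30 and 35 bp at 15.1 and 7.21.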

How the data were processed

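Footprints and peaks were called for each library from its own filtered alignments on mm10, per the deposited description files. For the aligner, both callers and every threshold the sources used here give no name or value. The authors deposited a signal value with each peak, used here as it stands, and a score with each footprint that is 0.01 in every line, so only footprint positions were used. The depth of each library and its precision are not known from these files, and false discovery rates per base were not used. Loci, distances to GENCODE release 21 starts on GRCm38, repeats and pattern matches were computed in Python 3.11.15 with numpy 2.4.6 and scipy 1.17.1, and plotted with matplotlib 3.10.9. As a check of the code alone, the rule was run on simulated intervals and found 1512 of 1512 planted loci. This does not measure how well footprints were called. The members, lists and patterns were chosen with earlier results of these data known. Named loci were the 10 widest, the 5 in peaks of highest and the 5 of lowest mean value, the 5 widest distal ones, and up to 2, the widest, per list, with sequences for up to 4 loci of CTCF and 2 of REST. One locus that this rule names is not reported here. Cited2 was added after its values were seen. Loci at CTCF edges, REST spacings and genes with several loci were chosen after their values were seen. Without groups there was no test, and animals are the only replicates. Alternatives changed the width, overlap, distance, window, peak list and library. The value is read from a peak that overlaps the locus by at least 1 base.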

Additional observations from a re-analysis of the deposited data

How the results depend on the processing

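Main values were 9411 loci, a median mean width of 35.5 bp, 41.9% near starts and 61.8% GC. With a minimum width of 25 bp there were 18870 loci of 31.5 bp and 63.2% GC, and with 40 bp 2365 loci of 44.5 bp and 59.2% GC. GC was 62.2% without marked repeats and 62.5% in the bases of both intervals. The share near starts was 37.6% within 500 bp and 38.1% with protein-coding starts alone. Using all long footprints of 1 library, without the other replicate, gave 13736 to 16960 loci, 34 bp in both cases, 42.6% to 43.6% near starts and 61.8% to 62.5% GC. Median peak values were tried with other widths and overlaps, 1 library, repeats left out, the shorter peak list and whole containment. They ranged from 3.58 to 4.53 in replicate 1 and from 2.49 to 3.26 in replicate 2. Each moved by less than 0.889, the SD of the 2 library medians, which includes the lower values of replicate 2. The CTCF share was 17.4% in 40 bp windows and 17.5% in 100 bp windows. Leaving out loci whose middle 30 bases occur more than once, chosen after seeing the data, gave 9164 loci and a CTCF share of 17.8%. No paired analysis was possible because the design has 1 group. The spread between animals of a single locus rests on 2 values. Depth is unknown, and sites of few cuts can hold long footprints that are not listed.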

Other observations

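Autosomes held 6.38 to 8.05 long footprints per 100 other footprints, and the X chromosome 5.50, with 156 long footprints. Chromosome Y had 1 long and 17 other footprints, although the mice were female. Where those reads come from was not tested. Neighbouring loci at most 200 bp apart formed 638 pairs, with a median gap of 35 bp and a smallest gap of 2 bp, and 41 pairs were under 20 bp apart. The distal loci were nearest to 4085 protein-coding genes, of which 3089 had 1 and 260 had 3 or more.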
